A study of Mus musculus with 2 samples.

Results

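The actin, tropomyosin and contractile genes described here were 10 genes (Acta2, Actb, Actg1, Tagln, Cnn1, Myl9, Myh9, Tpm1, Tpm2 and Cald1) that build or bind actin filaments in mesenchymal and smooth muscle-like cells. They were taken as a fixed list by name, 10 of the 51229 genes with at least 1 identifier (ID) of their own in the count tables, and the counts of all IDs of a gene were summed. RNA-seq had been performed on differentiated female germline stem cells (FGSCs) of CD-1 mice, cells of the ovary that can be cultured and driven towards the oocyte lineage. The cells of both libraries, replicates 1 and 2, had received retinoic acid (RA, 10 µM) together with BMP4 (10 ng/mL) for 3 days. During this time they lay on a layer of granulosa cells, which are somatic cells of the follicle. Before induction the FGSCs had been cultured on STO feeder cells, which are derived from mouse embryos. The induction medium lacked GDNF, EGF and LIF, growth factors of that earlier culture. Each library held the cDNA of 5 to 8 cells, amplified by the Smart-seq protocol, and the labels do not say whether the replicates came from separate cultures. Both libraries belong to 1 condition, so no comparison between groups was possible and no p-value is given.

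Actin monomers assemble into filaments that give a cell its shape and, together with myosin, its pulling force. Beta-actin (Actb) and gamma-actin (Actg1) are the cytoplasmic forms of nearly every cell, whereas alpha-actin 2 (Acta2) is the form of smooth muscle cells and myofibroblasts. Non-muscle myosin heavy chain IIA (Myh9) and the regulatory light chain Myl9 form the motor, tropomyosins (Tpm1, Tpm2) lie along the filament, and transgelin (Tagln), calponin 1 (Cnn1) and caldesmon (Cald1) bind it. Many of these genes are known targets of serum response factor (Srf) and its myocardin-related partners, which bind a DNA element called the CArG box.

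The libraries differed strongly in depth. Replicate 1 held 1517151 counts and replicate 2 held 12442. Shares are given as counts per 1000000 (CPM), on which scale 1 count was 80.4 in replicate 2 but 0.659 in replicate 1. A level of 3 counts, taken here as the smallest shown, was 1.98 CPM in replicate 1 and 241.1 CPM in replicate 2. The markers of other cells were uneven as well. Of 12 germ cell markers, 9 had an ID of their own. In replicate 1, 0 of these 9 had a count, and all 9 were listed at 0 in replicate 2 too. The study itself detected Stra8 and Sycp3, both among the 9, by RT-PCR in RA-treated FGSCs, and Stra8 also by immunofluorescence. The counts described here give no support of their own to the germ cell label. Genes that nearly every cell uses (Cfl1 and Tmsb4x) were also listed at 0, and what the zeros mean for that label was not tested. Of the other marker lists, 6 of 12 fibroblast markers, 6 of 13 granulosa cell markers and 1 of 6 smooth muscle markers (Des, 28 counts) reached 3 counts in replicate 1, compared with 33.3% of protein-coding genes. The 12 fibroblast markers summed to 4519 counts there and the 13 granulosa cell markers to 942. A few genes made up most of each sum. Dcn had 2281 counts, Col1a2 910, Pdgfra 726 and Col1a1 401, whereas Vim, Fn1 and Thy1 had 1 each and Lum and Pdgfrb 0. Among granulosa cell markers Kitl had 453 counts, Fst 229 and Gja1 224, whereas 7 of the 13 had 0, including Foxl2, Fshr, Amh and Cyp19a1. In replicate 2 these 3 lists summed to 18, 4 and 1 counts. There, 3 of 12 fibroblast markers reached 3 counts (Col1a2 6, Fn1 5 and Col3a1 3), compared with 3.83% of protein-coding genes. No granulosa cell or smooth muscle marker did, and Fshr, at 0 in replicate 1, had 2 of the 4 granulosa cell counts. Fn1 and Fshr thus differed between the libraries. The part of these cell types in the levels below was not tested, and in pooled cells fewer cells of a type and less RNA per cell cannot be told apart.

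The tables list Ensembl transcript IDs and protein accessions, and an accession is not paired there with a gene. The gene of an accession was inferred from its place between annotated transcripts. The 10 genes had 84 IDs, of which 29 were Ensembl IDs and 55 were inferred accessions. From the Ensembl IDs alone, Myh9 had 18 counts and Cald1 had 1 count in replicate 1, the other 8 genes had 0, and all 10 had 0 in replicate 2. All other counts of the 10 genes given below rest on inferred accessions. No count of replicate 1 or 2 was on an ID that could belong to 1 of the 10 genes and to another gene as well.

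The 3 actins of the list resemble each other closely, which bears on how their reads can be counted. The coding sequences of Actg1 and Actb were identical at 997 of 1125 bases (88.6%), with a longest identical run of 62 bases, and those of Actg1 and Acta2 at 81.7%. The first 90 coding bases of Actg1 and Actb are printed with the matching stretch of Acta2, which starts at its coding base 7, and with that of Gm12715, a processed pseudogene on chromosome 4. Sequences are those of GENCODE M21 transcripts on GRCm38 (mm10), 5′ to 3′ on the strand of the gene. Capitals mark bases that differ from Actg1.
Actg1, chr11:120348002-120348091, minus strand: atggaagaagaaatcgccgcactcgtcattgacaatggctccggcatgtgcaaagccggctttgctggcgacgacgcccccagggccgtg
Actb, chr5:142905597-142905686, minus strand: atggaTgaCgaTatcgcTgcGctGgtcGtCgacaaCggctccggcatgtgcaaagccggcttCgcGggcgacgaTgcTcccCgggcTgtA
Acta2, chr19:34252458-34252547, minus strand: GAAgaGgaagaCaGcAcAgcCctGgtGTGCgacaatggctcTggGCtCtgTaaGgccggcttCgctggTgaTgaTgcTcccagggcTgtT
Gm12715, chr4:103563402-103563491, plus strand: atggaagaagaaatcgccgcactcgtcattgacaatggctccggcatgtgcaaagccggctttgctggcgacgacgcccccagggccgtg
In this stretch Actb differed from Actg1 at 16 bases and Acta2 at 27 bases, while Gm12715 differed at 0. Over the 1125 coding bases of Actg1, Gm12715 was identical at 1121 (99.6%). Gm12715 had 174 counts in replicate 1, more than the 135 counts of Actg1 itself, and 0 counts in replicate 2. Windows of 50 bases were used to see how far a read could be placed. Of all such windows in the transcripts of Actg1, 37.4% also occurred in another gene, and Gm12715 shared 973 of them. The share was 9.12% for Actb, 0.680% for Myh9 and 0.326% for Acta2, and it was 0% for the other 6 genes. On the bases that belong to a single ID, where a read overlaps no other ID, 666 of 666 windows of Actg1, 298 of 320 of Actb and 1377 of 1384 of Acta2 occurred in no other gene. Reads from shared stretches of Actg1 cannot be told apart from reads of its pseudogenes by these letters. In all, 12 pseudogenes shared windows with Actg1, and 8 of them held 214 counts in replicate 1. Their counts in replicate 2 came to 2.

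Of the 10 genes, 7 had a count in replicate 1 and 5 had at least 3 counts. This is to be read against 15.6% of all genes and 33.3% of protein-coding genes with at least 3 counts in that library. In replicate 2, 2 genes had a count and 1 had at least 3, against 2.06% of all genes and 3.83% of protein-coding genes. The counts of the 10 genes summed to 691 in replicate 1, which is 455.5 CPM with an exact Clopper-Pearson 95% interval of 422.1 to 490.7 CPM. They summed to 6 in replicate 2, which is 482.2 CPM with an interval of 177.0 to 1049 CPM. Myh9 made up 65.4% of the sum in replicate 1 and the 3 actins 33.9%. All intervals cover counting error only, since reads of amplified cDNA without molecular identifiers are not independent molecules.

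**Figure D1:**
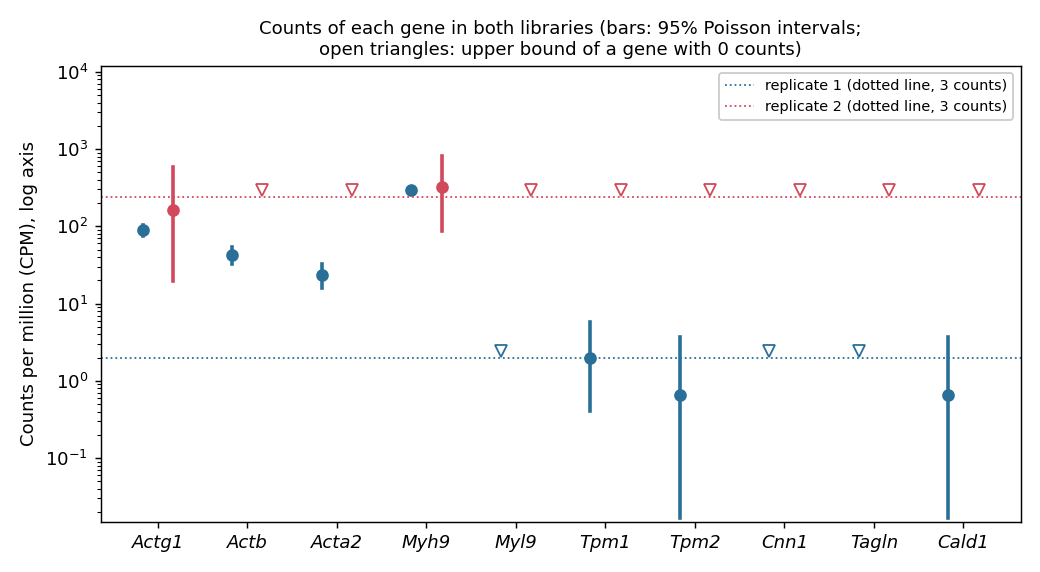
CPM of the 10 genes on a log axis, with replicate 1 in blue and replicate 2 in red. Points are measured values, vertical lines exact 95% Poisson intervals and open triangles the upper bound for a gene with 0 counts. Myh9 was at 297.9 CPM in replicate 1 and 321.5 CPM in replicate 2, and 8 genes had 0 counts in replicate 2, where even the dotted line of 3 counts lies at 241.1 CPM.

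Levels can be compared between genes only per length. FPKM was therefore used, which divides a gene's counts by its exonic kilobases and by the library total in units of 1000000. Actg1 (chr11:120345690-120348542, minus strand), the gene of cytoplasmic gamma-actin, had 135 counts in replicate 1 and 2 counts in replicate 2. These correspond to 33.5 FPKM (exact Poisson 95% interval 28.1 to 39.6) and 60.5 FPKM (7.32 to 218.5). The interval of replicate 2 contained the whole interval of replicate 1. Its level in replicate 1 was above that of 94.1% of the protein-coding genes with an ID of their own. With the 214 counts of the pseudogenes included, the sum of the 10 genes in replicate 1 rose from 455.5 to 596.5 CPM.

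Actb (chr5:142903115-142906754, minus strand), the gene of cytoplasmic beta-actin, had 64 counts in replicate 1 and 0 in replicate 2. Its FPKM in replicate 1 was 15.7 (12.1 to 20.1), above 89.8% of the protein-coding genes. At the share of replicate 1, 0.525 counts of Actb would fall in replicate 2, so that its absence of counts there was not a detectable difference under scaling by total counts. Beta-actin thus ranked below gamma-actin in replicate 1 by this measure. Lrrc58 shared 179 windows of 50 bases with Actb and had 444 counts in replicate 1.

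Acta2 (chr19:34241090-34255590, minus strand), the actin of smooth muscle and of myofibroblasts, had 35 counts in replicate 1 and 0 in replicate 2. This gave 10.5 FPKM in replicate 1 (7.32 to 14.6), above 87.0% of the protein-coding genes. In replicate 2, 0.287 counts would be expected at that share. The other muscle actins Acta1, Actc1 and Actg2, which belong to skeletal muscle, heart and enteric smooth muscle, were listed at 0 in both libraries. Of the 6 smooth muscle markers, Myh11, Actg2, Smtn, Lmod1 and Myocd were listed at 0 in both libraries as well, and Des had 28 counts and 1 count. Of the 7 windows of 50 bases that Acta2 shared with other genes, all 7 were also present in Gm12715.

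Myh9 (chr15:77760587-77842175, minus strand) had the most counts of the list, 452 in replicate 1 and 4 in replicate 2. The FPKM was 23.0 (21.0 to 25.3) in replicate 1 and 24.9 (6.78 to 63.7) in replicate 2, a mean of 24.0 ± 1.29 (SD, n = 2). This SD rests on only 4 counts in replicate 2 and on scaling by total counts. Myh9 was the only gene of the 10 with at least 3 counts in both libraries. In replicate 1, 434 of its counts were on the inferred accession of the full-length coding transcript and 18 on an Ensembl transcript with a retained intron (chr15:77765328-77767190). The heavy chain Myh10, which forms non-muscle myosin IIB, had 0 counts in replicate 1 and 3 in replicate 2, where its FPKM was 23.1. The smooth muscle heavy chain Myh11 and non-muscle Myh14 were listed at 0 in both libraries.

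Myl9 (chr2:156775420-156781658, plus strand), a regulatory light chain of smooth muscle and non-muscle myosin, was listed at 0 in both libraries. Only 333 of its 1162 exonic bases belonged to a single ID. Whether reads on the other bases were counted is not given in the sources used here. Over the bases of a single ID the exact Poisson upper bound of 0 counts in replicate 1 corresponded to 7.30 FPKM, and over all exonic bases to 2.09 FPKM. In replicate 2, 3 counts over the bases of a single ID corresponded to 724.1 FPKM. The essential light chain Myl6 had 4 counts in replicate 1, at 0.827 FPKM, and Myl12a had 0. The regulatory light chain Myl12b had 1 count on its own IDs and 70 on IDs that could also belong to another gene. Myosin light chain kinase (Mylk), which phosphorylates the regulatory light chain, had 19 counts in replicate 1, at 1.11 FPKM, and 0 in replicate 2.

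Tropomyosins were near the limit of detection. Tpm1 (chr9:67022590-67049406, minus strand) had 3 counts in replicate 1, at 0.305 FPKM (0.0629 to 0.891), and 0 in replicate 2. Tpm2 (chr4:43514711-43523765, minus strand) had 1 count in replicate 1, at 0.227 FPKM (0.00574 to 1.26), and 0 in replicate 2. Their relative order was not resolved, since the ratio of Tpm1 to Tpm2 was 1.35 with an interval of 0.108 to 70.6. The related Tpm3 had 7 counts and Tpm4 had 0 in replicate 1, and both had 0 in replicate 2. For Tpm3, 23.2% of the windows of 50 bases occurred in other genes.

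Tagln (chr9:45929619-45936058, minus strand) and Cnn1 (chr9:22099216-22109630, plus strand), which are used as early markers of smooth muscle differentiation, were listed at 0 in both libraries. Over the bases of a single ID (599 in Tagln, 1651 in Cnn1) the upper bounds of 0 counts in replicate 1 corresponded to 4.06 FPKM for Tagln and 1.47 FPKM for Cnn1. Over all exonic bases they were 1.22 and 0.889 FPKM. Of the exonic bases of Tagln, 67.9% lay under exons of genes on the other strand (Pcsk7 and Gm48529), and whether counting used the strand is not given in the sources used here. The other 9 genes of the list had 0 such bases. Their relatives outside smooth muscle had counts. Tagln2, a transgelin found in many cell types, had 4718 counts in replicate 1 (1494 FPKM, 1451 to 1537) and 1 count in replicate 2 (38.6 FPKM). At its share of replicate 1, 38.7 counts of Tagln2 would be expected in replicate 2 under total counts. The calponin Cnn2 had 81 counts in replicate 1 (21.7 FPKM, 17.2 to 27.0) and 0 in replicate 2, whereas Cnn3 was listed at 0 in both and the neuronal transgelin Tagln3 had 2 counts and 0 counts.

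Cald1 (chr6:34598500-34775473, plus strand), the gene of caldesmon, which inhibits the myosin ATPase on actin filaments, had 1 count in replicate 1 and 0 in replicate 2. The level in replicate 1 was 0.0547 FPKM (0.00139 to 0.305). The count was on an Ensembl transcript with a retained intron and not on any of the 11 inferred accessions of the gene. Cald1 had 12041 exonic bases, of which 6550 belonged to a single ID, more than any of the 10 genes except Myh9.

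**Figure D2:**
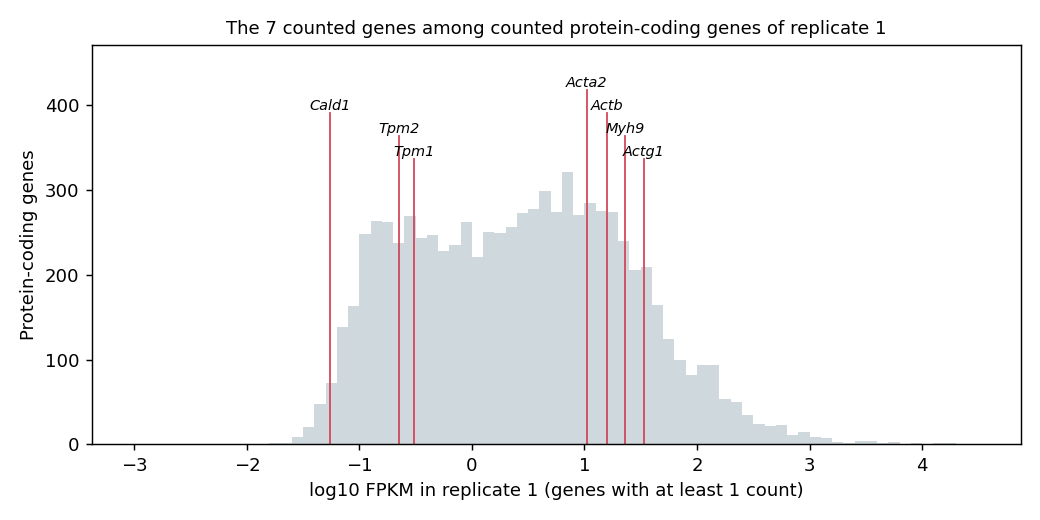
Distribution of log10 FPKM in replicate 1 over protein-coding genes with at least 1 count (grey bars, number of genes per bin), with red lines at the 7 counted genes of the list. Actg1, Myh9, Actb and Acta2 lay between 10.5 and 33.5 FPKM, and Tpm1, Tpm2 and Cald1 between 0.0547 and 0.305 FPKM.

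The 7 counted genes thus fell into an upper and a lower set in replicate 1. The lowest of the 4 upper genes, Acta2, was 34.5 times above the highest of the lower genes, Tpm1 (10.9 to 175.1). Within the upper set Actg1 was 1.45 times above Myh9 (1.19 to 1.76), and Myh9 was 1.46 times above Actb (1.12 to 1.93). Per all exonic bases, Actb and Acta2 did not differ beyond counting error, with a ratio of 1.50 (0.978 to 2.33). On the log2(FPKM + 1) scale the levels were 5.11 for Actg1, 4.59 for Myh9, 4.07 for Actb and 3.52 for Acta2. The median FPKM of the 10 genes in replicate 1 was 0.266, compared with 0 for the protein-coding genes, whose upper quartile was 1.72. The 4 upper genes exceeded that quartile.

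Whether reads on bases shared by several IDs of a gene were counted is not given in the sources used here. If they were left unassigned, the bases open to counting differ between genes. Of the exonic bases, 79.1% in Myh9 and 69.7% in Acta2 belonged to a single ID, compared with 34.2% in Actg1 and 24.0% in Actb. These were 909 bases in Actg1, 643 in Actb, 1531 in Acta2 and 10220 in Myh9. Of the 84 IDs, at most 42 had at least 1 window of 50 bases that occurs in no other ID or gene, and 8 had a count. The 42 is an upper figure, since an ID that could stand for 2 transcripts was given the higher value. All 64 counts of Actb were on an ID with 248 bases of its own. All 135 counts of Actg1 were on an ID with 390 in the higher of its 2 transcripts.

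**Figure D3:**
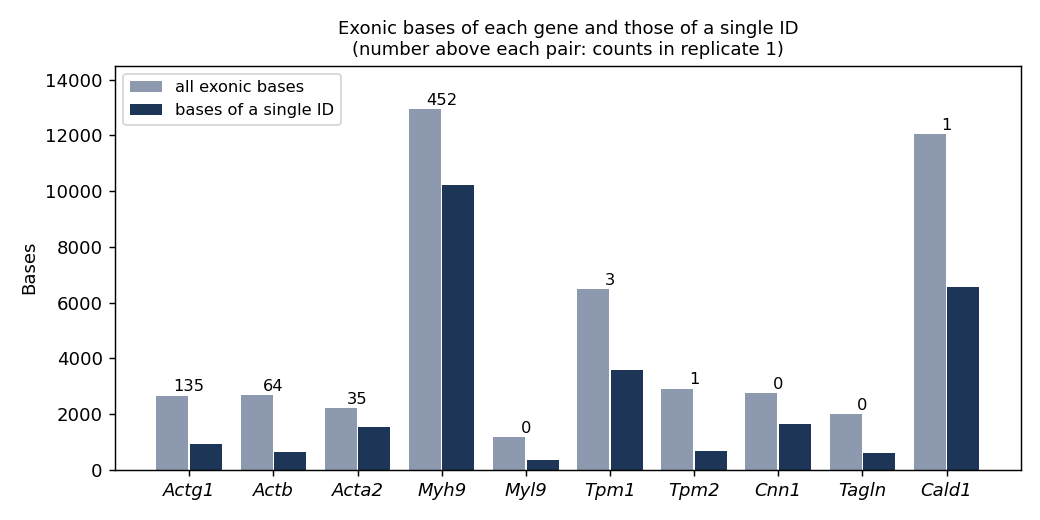
All exonic bases of each gene (grey) and the bases that belong to a single ID (dark blue), with the counts of replicate 1 above each pair. Cald1, with 6550 bases of a single ID, had 1 count, whereas Actb, with 643 bases, had 64 counts.

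With the bases of a single ID as length, an alternative chosen after the data had been seen, the order within the upper set changed. Actg1 was at 97.9 FPKM, Actb at 65.6, Myh9 at 29.2 and Acta2 at 15.1 in replicate 1. Actb was then 2.25 times above Myh9 (1.70 to 2.93) instead of below it, and Myh9 was 1.93 times above Acta2 (1.37 to 2.81). Actb and Acta2, not separated per all exonic bases, thus lay apart with Myh9 between them. Actg1 remained the highest and was 1.49 times above Actb (1.10 to 2.04). Acta2 was 15.0 times above the next gene, Tpm2, although the interval from 2.53 to 610.9 was wide. Single-transcript bases, which split the 2 transcripts of the counted Actg1 ID, gave the same order of these 4 genes, with Actg1 at 156.9 FPKM and 2.39 times above Actb (1.76 to 3.27). The relative levels of the cytoplasmic actins and the myosin heavy chain therefore depended on the length used. The 4 upper genes lay above the tropomyosins and Cald1 under each of these lengths, but the size of the gap changed.

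**Figure D4:**
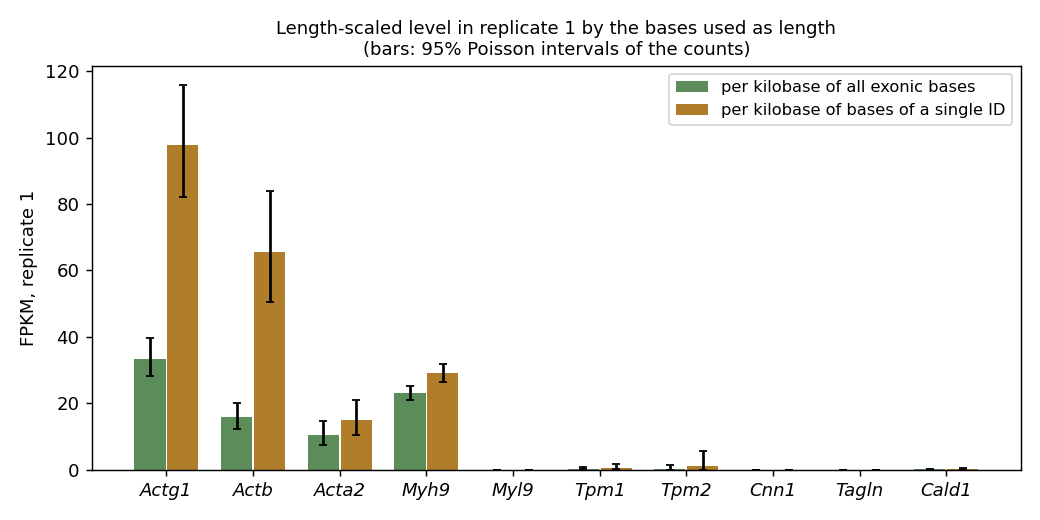
FPKM in replicate 1 per kilobase of all exonic bases (green) and per kilobase of bases of a single ID (ochre), with 95% Poisson intervals of the counts. Actb rose from 15.7 to 65.6 FPKM and passed Myh9, which moved from 23.0 to 29.2 FPKM.

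The only difference that the data hold is that between the libraries. By total counts, the summed share of the 10 genes in replicate 2 was 1.06 times that in replicate 1, with an exact conditional binomial 95% interval of 0.387 to 2.32. For Myh9 the ratio was 1.08 (0.293 to 2.78) and for Actg1 1.81 (0.217 to 6.65). None of the 7 counted genes had an interval that excluded 1, beside 22.1% of the 13700 genes with a count in either library. These shares are not alike in kind, since the 7 genes all had a count in replicate 1, and at most 1.11 counts were expected in replicate 2 for each gene but Myh9, too few for a lower share to be seen. Without Myh9 the ratio of the sum was 1.02 (0.123 to 3.73).

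This result depended on the scaling. Scaling by edgeR's TMM, in place of total counts, raised the relative size of replicate 2 by 3.29 on the log2 scale, and DESeq2 size factors raised it by 3.06. The ratio of the sum was then 0.109 (0.0397 to 0.238) with TMM and 0.127 (0.0463 to 0.277) with DESeq2. Under both scalings the intervals of 3 of the 7 genes, Myh9, Actg1 and Actb, lay below 1. The background moved too, to 31.5% of the 13700 genes with TMM and 29.9% with DESeq2. By total counts 19.2% of these genes were higher and 2.88% lower in replicate 2, compared with 8.43% higher and 23.1% lower with TMM. The DESeq2 factors rest on the 1883 genes with a count in both libraries, each of which has at least 1 count in the shallow one. TMM, too, uses only genes with a count in both libraries, so both scalings share this selection and are not independent. Under TMM 36.1 counts of Myh9 would be expected in replicate 2, where 4 were seen, and under total counts 3.71.

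Of 32 other genes of the actin and contractile apparatus, 11 had at least 3 counts in replicate 1 and 17 were listed at 0. The 11 genes are 34.4% of the list, close to the 33.3% of protein-coding genes. In replicate 2, 1 gene (Myh10) had at least 3 counts, which is 3.12% beside 3.83% of protein-coding genes, and 28 were at 0. Tagln2 had the most counts of these genes in replicate 1, followed by Tmsb10, Actn1 and Cnn2. By total counts the share of Tagln2 in replicate 2 was 0.0258 times that in replicate 1 (0.000654 to 0.144). For Myh10 the ratio went the other way, with a lower bound of 50.4. The intervals of the other counted genes of this list held 1. Over the 13700 genes with a count in either library, 22.1% had an interval that excluded 1. Thymosin beta 10 (Tmsb10), which binds actin monomers, had 289 counts (149.3 FPKM) in replicate 1 and 1 count in replicate 2. Alpha-actinin 1 (Actn1), which cross-links filaments, had 177 counts (21.1 FPKM) and 0 counts. Profilin 1 (Pfn1), which loads monomers onto growing ends, had 23 counts (6.30 FPKM) and 0. The intermediate filament gene Des was at 4.92 FPKM in replicate 1. Cofilin 1 (Cfl1) and thymosin beta 4 (Tmsb4x), which nearly every cell uses, were also listed at 0 on their own IDs in both libraries, so that a gene listed at 0 cannot be read as not transcribed.

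The regulators and their element were looked at last. Srf had 3 counts in replicate 1 (0.684 FPKM, 0.141 to 2.00), its partner Mrtfb had 9 (0.660 FPKM, 0.302 to 1.25), and Myocd and Mrtfa were listed at 0. All 4 had 0 counts in replicate 2. Promoter sequences of RefSeq (GRCm38.p6) matched 8 of the 10 genes, with no entry used for Actb and Tagln. The CArG box was searched on both strands in the 250 bases before each start. A box was taken as exactly CC, then only A or T, then GG, 10 bases in all. Boxes that deviate from this at a base or lie further away were not looked for. An exact box was found in 2 of the 9 promoter entries of these 8 genes, in Myl9 and Actg1. It was found in 482 of all 32851 promoters (1.47%). Both sites are printed with 10 bases on each side, 5′ to 3′ on the strand of the gene, and capitals mark the box.
Myl9, chr2:156775293-156775322, plus strand: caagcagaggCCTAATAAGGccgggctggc
Actg1, chr11:120348566-120348595, minus strand: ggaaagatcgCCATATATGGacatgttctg
Distances are counted from the RefSeq start of each promoter entry, which is base 156775464 of chromosome 2 for Myl9 and base 120348495 of chromosome 11 for Actg1 and differs from the GENCODE gene start given above. The box began 161 bases before that start in Myl9, a gene listed at 0, and 90 bases before it in Actg1, the gene with the highest FPKM of the list in replicate 1. A match of letters is a description and not a sign of binding.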

How the data were processed

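RNA-seq was measured in 2 libraries of 1 group. The authors deposited raw counts per ID, without normalization or pooling. The study's methods name TopHat and Cufflinks, whereas the submitters' processing notes name Trim Galore, HISAT2 2.2.1, featureCounts and mm10. Parameters are not given in the sources used here. The tables list 129311 IDs, 76066 Ensembl transcript IDs and 53245 protein accessions. Ensembl IDs were matched to GENCODE M21. Accessions were placed between their annotated neighbours, and 45417 were left with 1 gene, named as inferred. With 50% of known IDs hidden, 99.99% of 21480 placed IDs were right. The number of accessions equalled that of distinct coding sequences in each of the 10 genes except Tagln (1 and 2). Of 9 accessions known for these genes, 7 were listed and all 7 lay in their gene.

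FPKM was computed from the counts. Intervals are exact 95% Poisson, Clopper-Pearson or conditional binomial intervals. The ratio interval was run on simulated independent counts, the setting it assumes, which leaves the amplification of cDNA uncovered. The genes and lists were chosen with earlier results of these data known. The genes named were the 10 members, relatives of the same families and the 8 other listed genes with most counts. Srf, its partners, Gm12715, Lrrc58, Cfl1, Tmsb4x and the markers were named after their values were seen. Depth was 1517151 and 12442 counts. Alternatives were Ensembl IDs alone, IDs of several genes, thresholds of 1 and 5 counts, totals without mitochondrial counts, edgeR's TMM, DESeq2 size factors, single-transcript bases, a pseudocount of 0.1 in place of 1, and each replicate left out. Bases of a single ID, added pseudogene counts and the sum without Myh9 were added after seeing the data. Tools were edgeR 4.0.16 and DESeq2 1.42.0 in R 4.3.3, with scipy 1.17.1 and pandas 2.3.3 in Python 3.11.15.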

Additional observations from a re-analysis of the deposited data

How the results depend on the processing

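No paired analysis was possible because the 2 replicates form a single group. With Ensembl IDs alone, 1 of the 10 genes reached 3 counts in replicate 1 and 0 in replicate 2, the summed share was 12.5 CPM in replicate 1 and 0 CPM in replicate 2, and the ratio of the sums was 0, so these results rest on the inferred genes of the accessions. At a threshold of 1 count, 2 genes were counted in replicate 2, and at 5 counts 0 were. The total without mitochondrial counts moved the summed share of replicate 1 to 516.8 CPM, outside its counting interval. Added pseudogene counts moved it to 596.5 CPM, and leaving out Myh9 moved it to 157.5 CPM, and to 160.7 CPM in replicate 2. The ratio of the sums was 0.109 with edgeR's TMM and 0.127 with DESeq2 size factors. The other 12 values of these summaries stayed within their counting interval or within 1.5 times of the count. Of 149 alternative values of single genes, 72 belong to values of 0, most of which no alternative could change. Of the other 77, 51 stayed within their counting interval (means, within 1 SD) and 26 moved, 9 of them with Ensembl IDs alone. Leaving out either replicate leaves the level of the other, since there are 2. Each of 2 values lies within 1 SD of their mean, so the means could not move, and they count among the 51. IDs of several genes held no counts of the 10 genes, so adding them could move neither the summaries nor the single genes. In replicate 2, values under 3 counts (241.1 CPM), such as the 2 counts of Actg1, were below the threshold used here and are given for description.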
